A study of Mus musculus with 6 samples.

Results

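Described here are 10 genes of the naive state of mouse pluripotency: the transcription factors Klf2, Klf4, Klf5, Esrrb, Tfcp2l1, Tbx3, Prdm14 and Nr0b1, and the marker genes Zfp42 and Dppa3. They were chosen by name for their known roles, and all 10 were among the 16668 genes listed for each library. The transcripts measured were those of E14 cells, mouse embryonic stem (mES) cells of strain 129/Ola at passage 3 to 5, grown without feeder cells on gelatin in 2i medium with LIF. RNA-seq gave 6 libraries, 2 for each of 3 labelled groups. These were control (genotype given as wild type), Ring1B-KD (siRNA against Ring1B, a ligase that attaches ubiquitin to histone H2A and whose gene is Rnf2) and Dzip3-KD (siRNA against Dzip3, which attaches ubiquitin to H2A as well). The methods of the study describe transfection of siRNA, with a control siRNA for the control cells, so all 3 groups shared the line, the medium and the transfection. The cells are a single line. The study describes its RNA-seq samples as biological duplicates, while the labels do not state what was separate between them, and p-values measure the spread between these libraries. In bulk RNA, fewer expressing cells and less RNA per cell cannot be told apart.

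2i medium contains PD0325901, which inhibits MEK and so the ERK pathway, and CHIR99021, which inhibits GSK3 and so stabilises beta-catenin of the Wnt pathway. LIF acts through its receptor and Jak1 on the transcription factor Stat3. Naive cells resemble the epiblast of the blastocyst before implantation, and primed cells that after implantation. Klf4 and Tfcp2l1 are known targets of Stat3, Esrrb is held down by Tcf7l1 and released when GSK3 is inhibited, and Klf2, Klf4 and Klf5 are zinc-finger factors with overlapping roles in self-renewal. Tbx3 is a T-box factor, Nr0b1 (Dax1) an orphan nuclear receptor that represses transcription, and Prdm14 a PR-domain protein that represses FGF receptor signalling and DNA methyltransferases. Zfp42 (Rex1) is a zinc-finger protein widely used as a naive reporter, and Dppa3 (Stella) protects maternal methylation marks and is also a germ cell marker.

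The members lie on 8 chromosomes in the mm9 annotation (GENCODE M1 on NCBIM37): Tfcp2l1, there named Tcfcp2l1, at chr1:120524522-120581744 (+), Prdm14 at chr1:13103538-13117244 (-), Klf4 at chr4:55540013-55545347 (-) and Tbx3 at chr5:120120678-120134733 (+). Dppa3 lies at chr6:122576428-122580290 (+), Klf2 at chr8:74842932-74845555 (+) and Zfp42 at chr8:44380422-44392363 (-). Esrrb lies at chr12:87702067-87862578 (+), Klf5 at chr14:99697910-99712624 (+) and Nr0b1 at chrX:83437103-83441286 (+). The values of each gene cover all exons of the gene as counted by the authors.

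Promoter sequences from RefSeq (assembly GRCm38.p6, 250 bases before to 50 after a gene's start) matched 6 of the 10 members, with 2 starts for Esrrb. Klf5, Tbx3, Dppa3 and Prdm14 had no entry. The promoters of Tfcp2l1, Esrrb and Nr0b1 are shown because these genes had the 3 largest differences between the file sets described below, and that of Zfp42 because it was the member with the highest level. Capitals mark a match to one of 5 motifs searched on both strands and spelled out under the sequences, and no match overlaps another.
Tfcp2l1, chr1:118627695-118627994 (+): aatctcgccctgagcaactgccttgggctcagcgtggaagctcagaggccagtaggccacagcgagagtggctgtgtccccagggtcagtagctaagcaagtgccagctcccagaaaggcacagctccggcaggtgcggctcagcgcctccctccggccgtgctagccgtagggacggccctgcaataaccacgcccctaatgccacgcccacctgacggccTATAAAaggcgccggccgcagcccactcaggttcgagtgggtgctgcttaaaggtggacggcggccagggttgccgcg
Esrrb, first start, chr12:86360867-86361166 (+): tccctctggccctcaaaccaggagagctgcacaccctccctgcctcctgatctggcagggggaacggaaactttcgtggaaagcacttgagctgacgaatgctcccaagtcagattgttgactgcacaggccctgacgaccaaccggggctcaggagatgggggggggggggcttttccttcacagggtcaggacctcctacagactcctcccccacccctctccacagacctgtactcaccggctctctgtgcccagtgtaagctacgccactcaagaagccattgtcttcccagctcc
Esrrb, second start, chr12:86421394-86421693 (+): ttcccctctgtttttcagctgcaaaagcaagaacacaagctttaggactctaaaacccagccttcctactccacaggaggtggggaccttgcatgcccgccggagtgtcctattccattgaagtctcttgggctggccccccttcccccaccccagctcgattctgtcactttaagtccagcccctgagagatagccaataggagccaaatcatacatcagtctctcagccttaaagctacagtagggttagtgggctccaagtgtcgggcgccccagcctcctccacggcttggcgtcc
Nr0b1, chrX:86191525-86191824 (+): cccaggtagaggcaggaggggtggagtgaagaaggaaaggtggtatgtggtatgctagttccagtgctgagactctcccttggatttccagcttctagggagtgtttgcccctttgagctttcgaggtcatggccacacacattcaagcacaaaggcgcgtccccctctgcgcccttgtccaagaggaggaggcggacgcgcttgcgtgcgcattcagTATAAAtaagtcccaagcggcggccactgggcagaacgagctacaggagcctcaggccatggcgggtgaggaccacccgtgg
Zfp42, chr8:43306960-43307259 (-): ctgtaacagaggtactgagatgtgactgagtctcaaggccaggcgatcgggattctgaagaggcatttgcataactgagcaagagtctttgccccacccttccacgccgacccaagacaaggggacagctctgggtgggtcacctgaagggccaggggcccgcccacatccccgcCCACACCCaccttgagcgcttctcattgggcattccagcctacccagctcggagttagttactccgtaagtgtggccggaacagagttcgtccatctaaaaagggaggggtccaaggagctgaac

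The promoter of Tfcp2l1 held a TATA box that began at position -28 from the gene's start, and that of Nr0b1 one at -32. The only Klf site among the members' promoters lay at -75 of Zfp42. The sequences of Esrrb, Klf2 and Klf4 held no match to the 5 motifs. The TATA box was searched as TATAAA, which 13.6% of 32851 mouse promoters of the same length held. The Klf site was CCACACCC, held by 3.56% of these promoters. An Esrrb half-site, AAGGTCA, was in 4.72% of them. A Tcf/Lef site, CTTTGAT, was in 3.73%. The Stat site TTCCNGGAA was the rarest, in 1.15%. A missing match says only that these letters are not in this window.

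The targeted genes were examined first, as a check of the labels. Rnf2 was at 30.6 and 20.4 RPKM (reads scaled to exon length and mapped reads) in the libraries labelled control 1 and 2, at 26.8 and 28.8 in those labelled Ring1B-KD 1 and 2, and at 19.4 and 28.2 in those labelled Dzip3-KD 1 and 2. Neither Ring1B-KD library was thus among the lowest for Rnf2, and its 2 lowest libraries were control 2 and Dzip3-KD 1. Dzip3 was at 2.24 and 2.68 RPKM in the control libraries, at 1.18 and 1.89 in the Ring1B-KD libraries and at 1.70 and 1.31 in the Dzip3-KD libraries, from 23 to 53 reads each. Its 2 lowest libraries were Ring1B-KD 1 and Dzip3-KD 2. The name of each deposited file also carries a condition word, and this word differed from the sample label for 4 of the 6 libraries. By file number, the words were control for the library labelled control 1, Ring1BKD for control 2, Dzip3KD for Ring1B-KD 1, control for Ring1B-KD 2, Ring1BKD for Dzip3-KD 1 and Dzip3KD for Dzip3-KD 2. Rnf2 was therefore lowest in the 2 libraries with file word Ring1BKD, and Dzip3 in the 2 with file word Dzip3KD. Groups below are those of the labels unless the file word is named, and naming a group makes no statement on whether its target was knocked down. Within each comparison by file word, the word was compared inside file numbers 1 to 3 (the first set) and 4 to 6 (the second set).

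The depth recovered from the RPKM values ranged from 3015348 to 3583611 mapped reads per library, so that 3 reads over 2 kb of exon equal 0.419 to 0.497 RPKM. Members other than Dppa3 rested on 64 to 2188 reads per library, and Dppa3 on 3 to 13. Pou5f1 (326 ± 65.4 RPKM, SD, n = 6), Nanog (246 ± 38.7) and Sox2 (154 ± 22.9), the defining factors of pluripotent cells, were high in all 6 libraries. Summed levels of endoderm, trophectoderm and fibroblast markers were low. They were 1.09 to 2.88 RPKM per library over 7 listed endoderm genes. Over 5 genes of trophectoderm they were 2.75 to 4.81, and over 4 of fibroblasts 2.61 to 5.46. Gata6 (endoderm), Cdx2 (trophectoderm) and Col1a1 (fibroblasts) were at 0 in at least 1 library. Sums were higher over 6 germ cell genes, at 39.55 to 72.2 RPKM, with Kit at 31.2 ± 8.80 and Dazl at 17.6 ± 5.74 (SD, n = 6). Over 4 listed genes of the 2-cell-like state, described below, they were 55.1 to 327 RPKM. Of 16 listed genes of formative and primed cells, 1 to 3 were at 0 in each library and their median was 1.16 to 1.79 RPKM, and Fgf5, which marks the epiblast after implantation, was at 0.219 ± 0.0896 RPKM (SD, n = 6). Their sum was 72.9 to 93.0 RPKM per library. The 3 with the highest means were Nodal (31.8 ± 8.33 RPKM), Etv4 (10.4 ± 5.17) and Zic2 (9.19 ± 1.44).

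The members summed to between 498 and 699 RPKM per library, with a median member at 40.8 to 55.8 RPKM against a median of 2.01 to 2.18 over all listed genes. None was at 0 in a library, and 8 of the 10 had a mean above 10 RPKM, a level reached by 18.4% of all listed genes. 5 of the 10 had a mean above 50 RPKM, against 2.17% of all genes. The levels are descriptions of cells in 1 medium, since no library of primed or serum-grown cells was analysed here.

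Zfp42 had the highest level of the 10 in every library, with 223 and 184 RPKM in control 1 and 2, 171 and 203 in Ring1B-KD 1 and 2, and 180 and 200 in Dzip3-KD 1 and 2. Its mean of 193 ± 19.0 RPKM (SD, n = 6) came with the smallest relative spread of the members, a coefficient of variation of 9.82%. Esrrb, an orphan nuclear receptor that binds many pluripotency genes, was second in every library, at 136 and 111 RPKM in the control libraries, 124 and 106 in Ring1B-KD and 75.6 and 93.2 in Dzip3-KD (mean 108 ± 21.5). Both Dzip3-KD libraries were below the other 4 for Esrrb, while the 3 groups overlapped for Zfp42. Both Dzip3-KD libraries belong to file numbers 4 to 6. For Esrrb and the genes that follow, the share of all genes with such an order of the 3 groups was not counted. Both Dzip3-KD libraries were below both control libraries for 30.3% of all genes tested.

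The 4 genes that followed had means within a narrow band. Klf5 was at 58.1 and 55.4 RPKM in the control libraries, at 96.7 and 51.4 in Ring1B-KD and at 47.2 and 54.4 in Dzip3-KD, so that Ring1B-KD 1 stood apart from the other 5 libraries. Tfcp2l1 was at 74.98 and 68.8 RPKM in the control libraries, at 56.0 and 51.4 in Ring1B-KD and at 45.8 and 44.7 in Dzip3-KD, and the 3 groups did not overlap. Klf4 was at 57.6 and 50.7 RPKM in the control libraries, at 61.7 and 46.8 in Ring1B-KD and at 40.0 and 48.7 in Dzip3-KD. The 2 Dzip3-KD libraries were below both control libraries for Klf4, and those of Ring1B-KD lay on either side of them. Klf2 was at 54.1 and 42.5 RPKM in the control libraries, at 50.8 and 54.0 in Ring1B-KD and at 41.6 and 48.9 in Dzip3-KD. Its 2 lowest libraries, control 2 and Dzip3-KD 1, were those with the lowest Rnf2.

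Tbx3 was at 49.4 and 41.5 RPKM in the control libraries, at 50.7 and 45.7 in Ring1B-KD and at 34.2 and 34.8 in Dzip3-KD. Nr0b1 was at 36.4 and 28.4 RPKM in the control libraries, at 29.7 and 28.7 in Ring1B-KD and at 21.5 and 15.9 in Dzip3-KD. For both genes the 2 Dzip3-KD libraries were the lowest of the 6. Prdm14 was at 8.19 and 8.21 RPKM in the control libraries, at 8.80 and 10.7 in Ring1B-KD and at 8.26 and 9.58 in Dzip3-KD, with the control libraries the lowest. Dppa3 was at 1.22 and 4.63 RPKM in the control libraries, at 2.90 and 2.22 in Ring1B-KD and at 4.49 and 3.75 in Dzip3-KD. The control libraries spanned the whole range of Dppa3, which had the largest relative spread of the members (coefficient of variation 41.9%). Dppa3 has retrocopies in the mouse genome, so reads of this gene could be lost or shared in counting.

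The order of the members by mean was Zfp42, Esrrb, Klf5, Tfcp2l1, Klf4, Klf2, Tbx3, Nr0b1, Prdm14 and Dppa3. Each neighbouring pair was compared by an exact two-sided permutation test of the log2 ratio of RPKM over the 6 libraries, adjusted by the Benjamini-Hochberg method over the 9 pairs. The pairs and their direction came from the means of these same 6 libraries, so the p-values only describe how alike the libraries were in each step. In 6 pairs the first gene was higher in 6 of 6 libraries and the exact permutation test gave p = 0.03125, the smallest it allows with 6 libraries, or 0.0469 after adjustment. These steps were Zfp42 over Esrrb (geometric mean ratio 1.82), Esrrb over Klf5 (1.80), Klf2 over Tbx3 (1.15), Tbx3 over Nr0b1 (1.63), Nr0b1 over Prdm14 (2.90) and Prdm14 over Dppa3 (3.06). Klf5, Tfcp2l1, Klf4 and Klf2 were not separated from their neighbours: Klf5 was above Tfcp2l1 in 3 of 6 libraries (exact permutation, adjusted p = 0.75), Tfcp2l1 above Klf4 in 4 of 6 (adjusted p = 0.281) and Klf4 above Klf2 in 3 of 6 (adjusted p = 0.492). Without the library labelled Ring1B-KD 1, Klf5 no longer held the third place. The ranks of Zfp42, Esrrb, Tbx3, Nr0b1, Prdm14 and Dppa3 were the same in each of the 6 libraries.

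**Figure D1:**
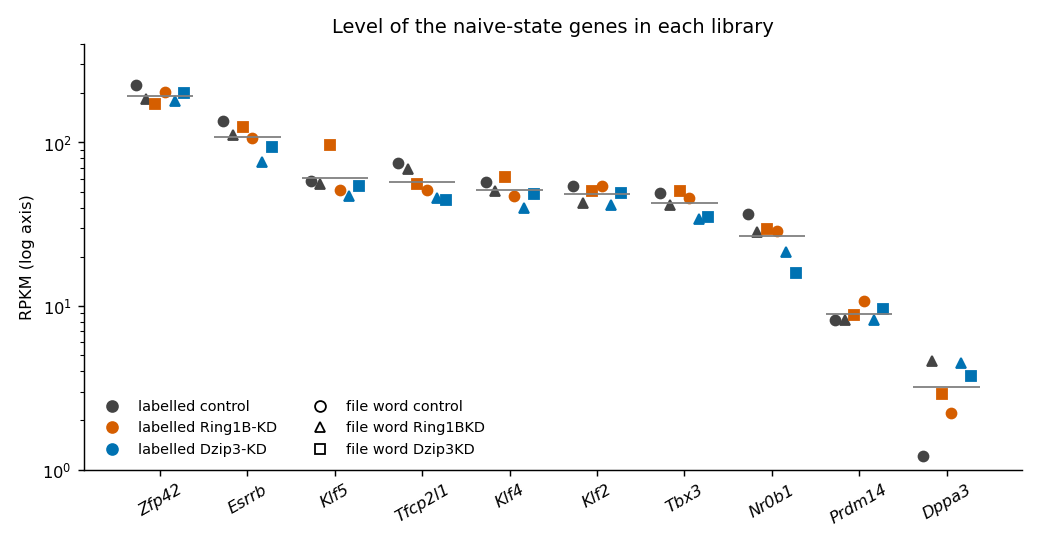
RPKM (log axis) of the 10 genes in the 6 libraries, with the colour showing the sample label, the shape the file word, the order within a gene the file number, and the grey line the mean over 6 libraries. Zfp42 is highest at 171 to 223 RPKM and Dppa3 lowest at 1.22 to 4.63 RPKM, and the 1 orange square of Klf5 at 96.7 RPKM stands apart from the other libraries.

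The question of the study was what the knockdown of Ring1B or Dzip3 does to transcription in these cells. By sample label, 0 of the 10 members passed the test between Ring1B-KD and control (limma on log2(RPKM + 1), adjusted p under 0.05 over 11538 genes), against 0% of all genes tested. Limma with voom weights on recovered reads also called 0 genes. In the fit on log2(RPKM + 1), 1 member, Tfcp2l1, had an unadjusted limma p under 0.05 and was lower, while 0 were higher. At that p were 5.1% of all genes in either direction, 2.88% lower and 2.23% higher. Tfcp2l1 was at 71.9 ± 4.37 RPKM (SD, n = 2) in control and 53.7 ± 3.28 in Ring1B-KD, a log2 change of -0.41 (limma SE 0.16, adjusted p = 0.902). Klf5 had a log2 change of 0.31 (SE 0.27) that rested on the library labelled Ring1B-KD 1, without which it was -0.14. The other 8 members had log2 changes from -0.14 (Nr0b1) to 0.22 (Prdm14). 5 of the 10 members were below 0, against 52.8% of all genes. Without overlap between the groups, 1 member (Tfcp2l1) was lower in Ring1B-KD and 1 (Prdm14) higher, against 18.9% and 14.9% of all genes.

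Between Dzip3-KD and control, 0 of the 10 members passed the test by label, against 0% of all genes, in the limma fit and with voom weights alike. In the fit without voom weights the unadjusted p was under 0.05 for 3 members, all lower, against 6.99% of all genes lower at that p and 12.2% in either direction. Nr0b1 was at 32.4 ± 5.64 RPKM (SD, n = 2) in control and 18.7 ± 3.98 in Dzip3-KD, a log2 change of -0.77 (limma SE 0.20, adjusted p = 0.302). Tfcp2l1 was at 71.9 ± 4.37 and 45.2 ± 0.822 RPKM, a log2 change of -0.66 (limma SE 0.16, adjusted p = 0.300). Esrrb was at 123 ± 18.1 and 84.4 ± 12.4 RPKM, a log2 change of -0.54 (limma SE 0.19, adjusted p = 0.347). These 3 factors thus had lower values under this label without passing the threshold. Tbx3 had a log2 change of -0.38 (SE 0.17) and Klf4 one of -0.29 (SE 0.20), and 8 of the 10 members were below 0, against 57.5% of all genes. For 6 members the Dzip3-KD libraries were both below both control libraries (Nr0b1, Tfcp2l1, Esrrb, Tbx3, Klf4 and Klf5), against 30.3% of all genes, and for Prdm14 they were both above, against 20.4%. Both Dzip3-KD libraries belong to file numbers 4 to 6 and both control libraries to 1 to 3, so this label and the file set cannot be told apart in these libraries alone. With the file set as a block, a fit chosen after the data were seen, Nr0b1 (-0.72), Tfcp2l1 (-0.53) and Esrrb (-0.33) had log2 changes below 0. Their limma adjusted p was 0.829, 0.829 and 0.885. The set effect of that fit is the difference between Ring1B-KD 1 and Ring1B-KD 2 alone. These 2 libraries also differ in file word (Dzip3KD and control), so the fit cannot separate the set from the word. In that fit Klf5 moved to 0.74, Klf4 to 0.11 and Prdm14 to -0.15, each across 0. For Klf5 the set effect rests on the high value of Ring1B-KD 1, 96.7 RPKM against 51.4 in Ring1B-KD 2.

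**Figure D2:**
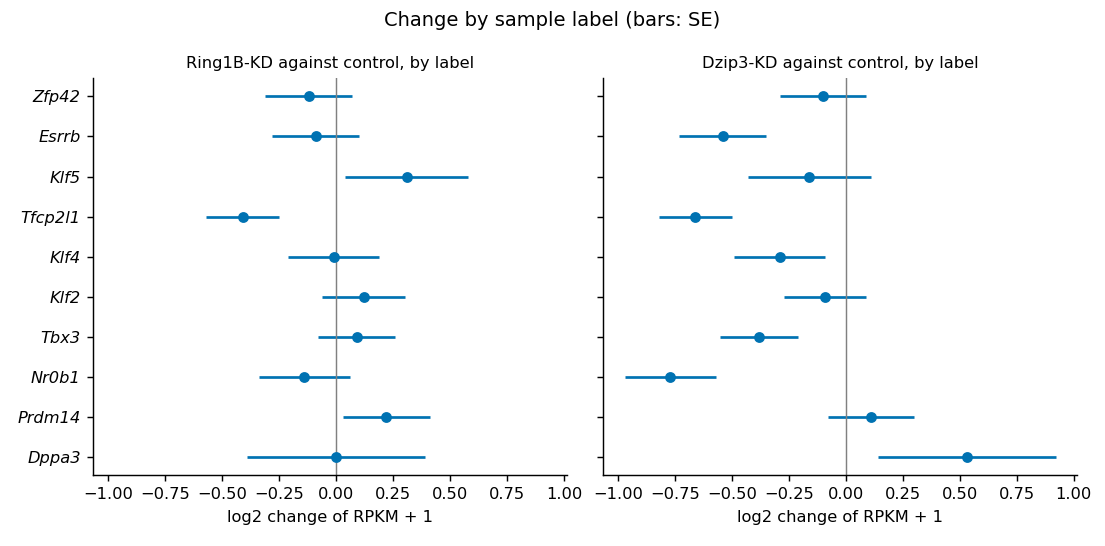
Log2 change of RPKM + 1 of the 10 genes in the libraries labelled Ring1B-KD (left) and Dzip3-KD (right) against those labelled control, with bars showing the SE of the limma fit. Tfcp2l1 lies below 0 in both panels (-0.41 and -0.66), Nr0b1 is lowest on the right (-0.77), and 0 of the 10 genes passed the test in either panel.

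By the condition word of the file, 0 of the 10 members passed the test between Ring1BKD and control with the file set as a block, against 0.416% of all genes, and all 48 genes that passed were higher. With voom weights, 72 genes and 0 members passed. In the fit without these weights the unadjusted p was under 0.05 for Esrrb and Klf2, which were lower, and for Dppa3, which was higher. At that p were 8.31% of all genes, 5.2% lower and 3.11% higher. Klf2 averaged 54.0 ± 0.0518 RPKM (SD, n = 2) over the libraries with file word control, labelled control 1 and Ring1B-KD 2, and at 42.1 ± 0.641 in those with file word Ring1BKD, labelled control 2 and Dzip3-KD 1. This was a log2 change of -0.35 (limma SE 0.12, adjusted p = 0.480). The 2 libraries of each word were close to each other for Klf2 in spite of their different labels, and the words did not overlap. The share of all genes whose words did not overlap was not counted, and for Esrrb these 2 words overlapped. Of all genes, 40.6% were lower in Ring1BKD in both sets. Esrrb was at 121 ± 21.0 RPKM for file word control and 93.1 ± 24.7 for Ring1BKD, a log2 change of -0.39 (limma SE 0.12, adjusted p = 0.423).

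Compared inside a file set, Klf2 in Ring1BKD was at 0.787 times the control library of the first set (95% counting interval 0.664 to 0.932) and at 0.771 times that of the second (0.651 to 0.913). Esrrb was at 0.812 times (0.761 to 0.867) and 0.710 times (0.658 to 0.766) the control library of its set. Tbx3 was at 0.839 times (0.755 to 0.932) and 0.748 times (0.668 to 0.838). In each of these 3 factors the library with file word Ring1BKD was lower in both sets by more than counting error, an interval that does not cover the spread between cultures. Nr0b1 was likewise at 0.781 (0.633 to 0.962) and 0.7499 times (0.591 to 0.9497) the control libraries. Zfp42 (0.825 and 0.885 times), Tfcp2l1 (0.918 and 0.892) and Klf4 (0.879 and 0.855) were also below 1 in both sets with their whole intervals. Klf5 was at 0.955 and 0.918 times, with intervals that reached above 1.

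In each set the interval lay wholly below 1 for 7 of the 10 members. Of all genes with recovered reads, the interval lay below 1 for 7.48% in the first set and 10.6% in the second. Intervals narrow with depth, and among genes averaging at least 100 reads these shares were 15.5% and 24.8%. The median member ratio was 0.859 in the first set and 0.813 in the second, against medians over all genes of 0.949 and 0.913, so genes in general were also shifted downwards. The intervals of Tfcp2l1, Klf4 and Nr0b1 included the median over all genes in both sets, and that of Zfp42 did so in the second. Those of Esrrb and Tbx3 lay wholly below it in both sets. That of Klf2 did so in the first set, and in the second its upper end met the median at 0.913. 8 of the 10 members were lower in both sets and 1 (Dppa3) higher, against 40.6% and 18.5% of all genes tested. In the fit 9 of the 10 members had a log2 change below 0, against 65% of all genes, and 8 of 10 after scaling to a common 75th percentile, where Klf5 was at 0.01. The median log2 change of the members was -0.21, against -0.08 for all genes, and it was -0.11 after that scaling and -0.10 after quantile normalization.

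Dppa3 went the other way, with 1.72 ± 0.709 RPKM (SD, n = 2) for file word control, 4.56 ± 0.101 for Ring1BKD and 3.33 ± 0.604 for Dzip3KD. Its log2 change was 1.06 for Ring1BKD (limma SE 0.21, adjusted p = 0.113) and 0.69 for Dzip3KD (limma SE 0.21, adjusted p = 0.754). In Ring1BKD it rested on 13 reads against 3 in the first set, a ratio of 3.81 (95% counting interval 1.05 to 20.8), and on 12 against 6 in the second, a ratio of 2.02 (0.703 to 6.57). The difference of Dppa3 in the second set was therefore not detectable at this depth. For Dzip3KD, Dppa3 rested on 8 reads against 3 in the first set, a ratio of 2.38 (0.572 to 13.95). In the second set it had 11 reads against 6, a ratio of 1.69 (0.573 to 5.57), and both intervals included 1. Prdm14 in Ring1BKD was at 1.00 times (0.707 to 1.43) and 0.770 times (0.556 to 1.06) the control library of its set, and its intervals included 1.

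Rnf2 moved with these values, at 0.668 times (0.556 to 0.801) and 0.675 times (0.559 to 0.812) the control library of its set in Ring1BKD, a log2 change of -0.55 (limma SE 0.13, adjusted p = 0.232). Genes of the 2-cell-like state, a rare state in mES cultures, moved in the opposite direction. 4 of 4 listed genes of that list passed the test and were higher in Ring1BKD by file word, with log2 changes of 1.77 for Zscan4c (limma adjusted p = 0.0156), 1.86 for Zscan4d (0.0156), 1.55 for Zscan4f (0.0280) and 1.22 for Zfp352 (0.0366). Their summed level was 327 RPKM in control 2 and 274 in Dzip3-KD 1, and 55.1 to 135 RPKM in the other 4 libraries. All 4 calls were lost without the filter on low values, without moderation, without the set block and without the library labelled Dzip3-KD 1, 2 of the 4 (Zscan4f and Zfp352) with a pseudocount of 0.1, and that of Zfp352 without control 1, control 2 or Ring1B-KD 2. The Zscan4 genes are near-identical paralogs, so their single values are uncertain. The part of the 2-cell-like genes in the values of the members was not tested. Of the 6 core pluripotency genes, 0 passed the test, and all 6 had log2 changes below 0 with a median of -0.26. Of 11 other naive-state genes tested, 0 passed and 9 were below 0 with a median of -0.13. In this comparison 65% of all genes were below 0. Fbxo15, of the same naive-state list, went the other way, with a log2 change of 0.75 (limma SE 0.13, adjusted p = 0.0598).

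By file word Dzip3KD, 0 of the 10 members passed the test against control, as did 0% of all genes, while 6.52% of all genes had an unadjusted p under 0.05 and voom weights called 1 gene, no member. At that p, Nr0b1 and Tfcp2l1 were lower and Dppa3 and Klf5 higher, against 3.34% of all genes lower and 3.18% higher. Nr0b1 averaged 32.5 ± 5.48 RPKM (SD, n = 2) for file word control and 22.8 ± 9.81 for file word Dzip3KD, labelled Ring1B-KD 1 and Dzip3-KD 2. Its log2 change was -0.55 (limma SE 0.16, adjusted p = 0.754). Inside the sets Nr0b1 was at 0.817 times the control library in the first (95% counting interval 0.663 to 1.005) and 0.553 times in the second (0.429 to 0.712). Tfcp2l1 was at 0.748 times (0.701 to 0.797) and 0.869 times (0.809 to 0.933), a log2 change of -0.31 (limma SE 0.13, adjusted p = 0.754). For Tfcp2l1 both libraries with the word Dzip3KD were thus lower than the control library of their set, whatever their labels.

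Klf5 was at 1.67 times the control library in the first set (1.45 to 1.92) and at 1.06 times in the second (0.902 to 1.24). The log2 change of Klf5 was 0.40 (limma SE 0.17, adjusted p = 0.754), and 0.09 without the library labelled Ring1B-KD 1. Tbx3 was at 1.03 times (0.928 to 1.14) in the first set and 0.763 times (0.684 to 0.851) in the second, and Zfp42 at 0.765 times (0.704 to 0.832) and 0.984 times (0.909 to 1.06), so each was lower by more than counting error in a single set. In both sets 5 of the 10 members were lower and 3 higher, against 29.5% and 22.3% of all genes, and the fit put 7 members below 0, against 55.5% of all genes. The interval lay below 1 for 3 members in the first set and 4 in the second, where 10.8% and 4.76% of all genes with recovered reads and 22.1% and 9.11% of those averaging at least 100 reads did so. It lay above 1 for 1 member, Klf5 in the first set, against 6.3% of all genes and 12.8% of those averaging at least 100 reads. The median member ratio was 0.9825 in the first set and 0.899 in the second, against 0.949 and 0.998 over all genes. The interval of Esrrb in the first set (0.853 to 0.970) included the median over all genes. That of Tfcp2l1 lay wholly below this median in both sets. Dzip3 itself was at 0.527 times (0.301 to 0.905) and 0.692 times (0.404 to 1.17) the control library of its set, and Rnf2 at 0.878 (0.740 to 1.04) and 0.980 times (0.832 to 1.15). The comparisons by Ring1BKD and Dzip3KD share the 2 control libraries.

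**Figure D3:**
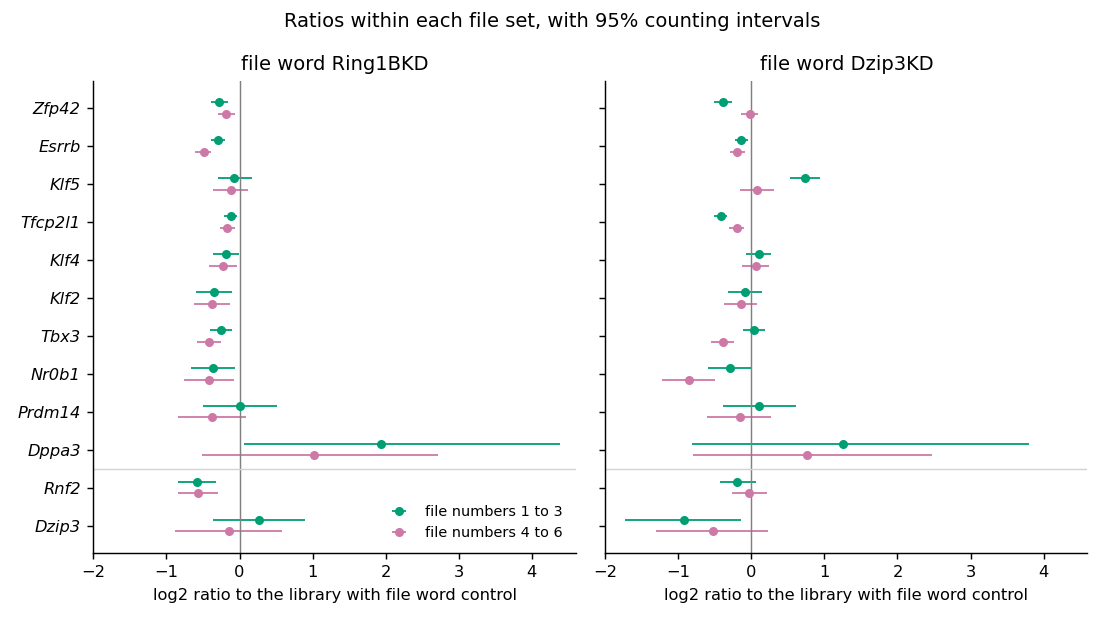
Log2 ratio of RPKM to the library with file word control of the same file set, for file words Ring1BKD (left) and Dzip3KD (right), with 95% counting intervals as bars and the targeted genes Rnf2 and Dzip3 under the grey line. For Ring1BKD the intervals of 7 of the 10 members lie wholly below 0 in each set. For Dzip3KD those of Tfcp2l1 and Esrrb lie below 0 in both sets while Klf5 of the first set lies above 0. The Esrrb interval for Dzip3KD in the first set includes the median over all genes, which itself lies below 0.

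The file sets themselves differed. Taking the set coefficient of the same fit, 2 of the 10 members passed the test, Tfcp2l1 and Esrrb, both lower in file numbers 4 to 6, against 7.62% of all genes in either direction, 3.67% lower and 3.94% higher. Tfcp2l1 was at 66.6 ± 9.66 RPKM (SD, n = 3) in the first set and 47.3 ± 3.60 in the second, a log2 difference of -0.48 (limma SE 0.11, adjusted p = 0.0351). Esrrb was at 123 ± 12.8 and 91.7 ± 15.5 RPKM, a log2 difference of -0.43 (limma SE 0.10, adjusted p = 0.0404). All 3 libraries of the second set were below all 3 of the first for both genes, and also for Klf4 and Klf5, making 4 of 10 members, against 15.5% of all genes. Both calls were lost when control 1, control 2, Ring1B-KD 2 or Dzip3-KD 1 was left out (limma adjusted p from 0.132 to 0.219), and they held without Ring1B-KD 1 or Dzip3-KD 2. They were also lost without the filter on low values (limma adjusted p = 0.112 for Tfcp2l1 and 0.123 for Esrrb).

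Nr0b1 was at 31.5 ± 4.28 RPKM (SD, n = 3) in the first set and 22.01 ± 6.42 in the second, a log2 difference of -0.53 (limma SE 0.13, adjusted p = 0.0525), with Dzip3-KD 2 the lowest library. With voom weights Nr0b1 passed the test (log2 difference -0.55, adjusted p = 0.0294). The log2 differences of Klf5 (-0.41, limma adjusted p = 0.120), Klf4 (-0.32, 0.0895) and Tbx3 (-0.30, 0.148) were also below 0 without passing. Klf2 (-0.03), Zfp42 (0.02), Prdm14 (0.16) and Dppa3 (0.26) had sets that overlapped, as did Nr0b1 and Tbx3. Klf2 changed sign under both other scalings and Zfp42 under quantile normalization. The unadjusted p was under 0.05 for 6 members, all lower, against 14.4% of all genes lower and 26.5% in either direction. 7 of the 10 members were below 0, against 55.3% of all genes, and the median member was at -0.31 against -0.04 for all genes.

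Other genes of the pathways that 2i medium and LIF act on also differed between the sets. Of 6 tested genes of the Wnt pathway, 3 were lower in the second set and 0 higher: Cdx1, a homeobox gene activated by Wnt signalling, was at 7.28 to 12.3 RPKM in the first set and 0 to 0.525 in the second (log2 difference -3.08), Sp5 at 4.52 to 9.17 and 0.133 to 0.146 (-2.74), and Axin2, a feedback inhibitor of the pathway, at 7.63 to 10.3 and 1.57 to 2.91 (-1.57). Of 7 tested genes that respond to ERK signalling, 3 were lower and 0 higher: Spry4 (log2 difference -1.07), Spry2 (-0.88) and Dusp6 (-0.73), each a feedback inhibitor of the pathway. Of 7 genes of the LIF pathway, Stat3 (-0.69) and its target Socs3 (-0.62) were lower and 0 were higher. This list was split, with 4 of 7 genes below 0 and a median log2 difference of -0.03. Lifr (0.55, limma adjusted p = 0.0665) and Pim3 (0.40, 0.0705) were above 0 without passing. The calls of Cdx1, Sp5, Axin2 and Spry2 held when any 1 library was left out, those of Dusp6 and Spry4 did not, and those of Stat3 and Socs3 were lost without control 1, control 2, Ring1B-KD 2 or Dzip3-KD 1. Without the filter on low values or without moderation, 0 genes passed between the sets. The pathway genes with the highest levels that did not pass were Ctnnb1, which encodes beta-catenin (log2 difference -0.06), and Etv5 (-0.20).

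Among 12 tested genes of formative and primed cells, 3 were higher in the second set and 2 lower. Otx2, a homeobox factor of formative cells, was at 0.871 to 1.33 RPKM in the first set and 5.72 to 12.1 in the second (log2 difference 2.25), and Cldn6 (1.45) and Nodal (0.61) were higher as well. Etv4 (-1.23) and the DNA methyltransferase Dnmt3b (-1.12) were lower. Of 11 other naive-state genes tested, Gbx2 was lower (7.82 to 7.96 RPKM against 1.30 to 1.84, log2 difference -1.77) and 0 were higher. Of these 11, 4 were below 0 and their median log2 difference was 0.33, against -0.31 for the members. Among those that did not pass, Nr5a2 (-0.28), Zscan10 (-0.20) and Tet2 (-0.15) were below 0. Above 0 were Spic (log2 difference 0.70, limma adjusted p = 0.0503), Tcl1 (0.43, 0.0718), Nanog (0.37, 0.0715), Pecam1 (0.37, 0.169), Dppa5a (0.36, 0.101) and Fbxo15 (0.33, 0.0927). Zfp57, a KRAB zinc-finger protein of imprinted loci, was also above 0 (0.23, 0.203). Of the 11, 6 were higher and 2 lower at an unadjusted limma p under 0.05, against 12% and 14.4% of all genes. The calls of Otx2, Etv4, Dnmt3b and Gbx2 held when any 1 library was left out, and those of Cldn6 and Nodal did not. Of 6 core pluripotency genes, Utf1 was lower (-0.67), Tdgf1 higher (0.58) and 4 did not pass, and both calls were lost without control 2 or Dzip3-KD 1. All 4 genes of the 2-cell-like list were lower in the second set, with Zscan4c at -0.83, although their sets overlapped and the 4 calls were lost without control 1, Ring1B-KD 1, Ring1B-KD 2 or Dzip3-KD 2. Of 6 germ cell genes tested, Kit, which encodes a receptor tyrosine kinase, was higher (0.72, not called without control 2 or Dzip3-KD 1) and 0 were lower, and 0 of the 5 tested genes of endoderm, trophectoderm and fibroblasts passed. The lists were chosen with earlier results of these libraries known, so their counts are descriptions. What the file numbers stand for (a culture, a day or a run) is not given in the sources used here. The part of the set in the comparison by label was not tested, since the block fit above takes the set effect from the Ring1B-KD libraries alone.

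**Figure D4:**
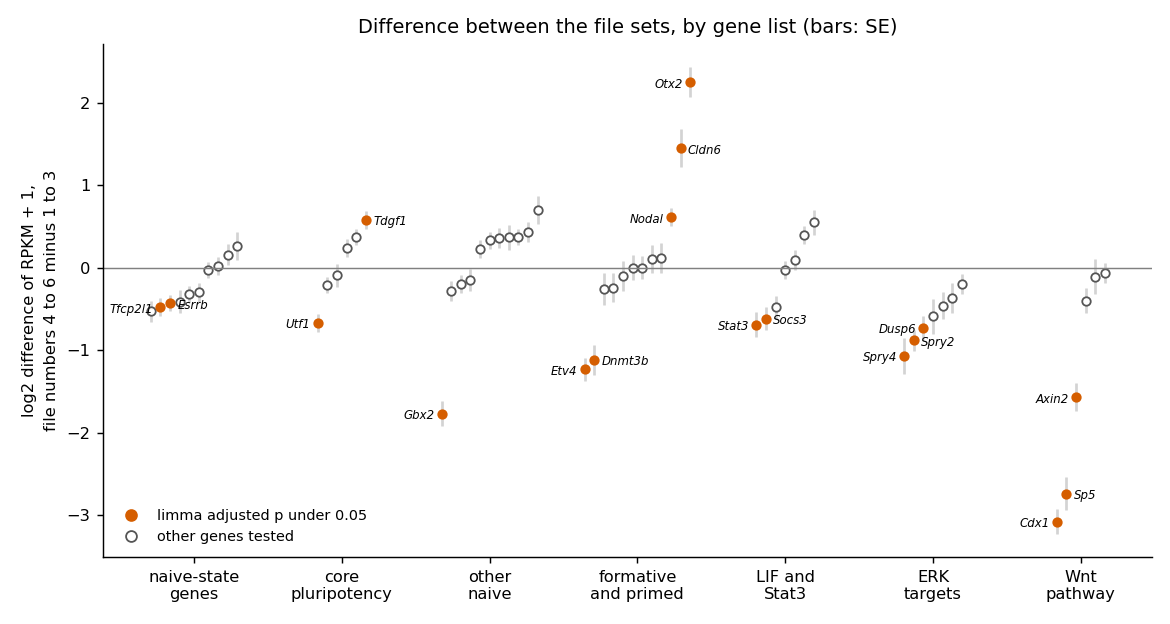
Log2 difference of RPKM + 1 between file numbers 4 to 6 and 1 to 3 (limma fit, bars show the SE) for each tested gene of 7 lists, sorted within a list, with filled points for an adjusted p under 0.05. Tfcp2l1 (-0.48) and Esrrb (-0.43) are the filled points of the 10 members, Gbx2 (-1.77) that of the other naive-state list, and Cdx1 (-3.08) and Otx2 (2.25) mark the ends of the range.

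Once each file set's mean had been removed, the members with a mean above 10 RPKM deviated on average by 0.097, -0.138 and 0.041 on the log2 scale in control 1, control 2 and Ring1B-KD 1, and by 0.165, -0.128 and -0.037 in Ring1B-KD 2, Dzip3-KD 1 and Dzip3-KD 2. Both libraries with file word Ring1BKD lay lowest in their set and both with file word control highest. Klf2 (cosine 0.963), Tbx3 (0.955) and Esrrb (0.942) followed this profile, which the members themselves make up, most closely over the 6 libraries, and Tfcp2l1 (0.304) and Klf5 (0.294) least. Of the genes outside the list with a mean above 10 RPKM, those with the highest cosine were Msh6 (0.999), Pipox (0.997), Ppp1r2 (0.990), Dpf2 (0.990) and Kti12 (0.989). After removal of 2 set means, 6 libraries leave few free values, so a high cosine is easily reached and these names are a description only.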

How the data were processed

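Poly(A) libraries made with a stranded kit were read on a MiSeq and aligned to mm9, per the study's methods (the submitters' processing notes name the same build). The authors deposited RPKM values, 1 list of 16668 genes per library, without pooling. The aligner's version and the gene annotation are not given in the sources used here, nor whether strand was used in counting. RPKM corrects for exon length and mapped reads, not for RNA composition.

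Groups were taken from the sample labels, and the condition word of each file was compared separately, since it differs from the label for 4 of 6 libraries. The members and gene lists were chosen with earlier results of these data known. The genes named were the 10 members, Rnf2 and Dzip3, of each list the genes that passed a test or up to 3 with the highest means, and the 5 genes most like the members' profile. Defining markers with a value of 0, and Nr5a2, Zscan10, Tet2, Spic, Tcl1, Pecam1, Fbxo15 and Lifr, were named after their values had been seen.

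The 11538 genes averaging 0.5 RPKM or more were tested on log2(RPKM + 1) by limma (version 3.58.1, R version 4.3.3) with a variance trend, in 1 fit over 6 libraries, two-sided, with Benjamini-Hochberg adjustment and a threshold of 0.05. Changes on this scale understate those of low genes. Whole reads were recovered from the steps of the RPKM values for 15524 genes (93.1%, tolerance 0.02 reads). Of the lengths, 21.6% equalled an annotated transcript, against 0.5% with 7 bases added. Annotated lengths were used to set the depth and to choose among possible lengths. This contrast was thus favoured in advance and is no check of the recovered reads. For the 10 members the length equalled none. Exact 95% intervals of ratios used these reads and cover counting error only. The code was tested on simulated data. Alternatives were another pseudocount, no filter, 2 other scalings, voom weights on recovered reads, no moderation, blocks, subsets of libraries, and leaving out each library.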

Additional observations from a re-analysis of the deposited data

Results flagged for a closer look

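Klf5 was the only one of the 10 members with a library far from the others. Its level of 96.7 RPKM in the library labelled Ring1B-KD 1 (563 reads), with file word Dzip3KD, compared with 47.2 to 58.1 RPKM in the other 5 libraries. The gap to the nearest library was 0.781 of the whole range, above Dixon's 95% critical value for 6 samples. 10 genes were examined in this way, and chance alone marks about 1 in 20. In the same library the other 9 members lay within the range of the other 5 libraries, apart from Zfp42 (171 RPKM, the lowest), Klf4 (61.7, the highest) and Tbx3 (50.7, the highest).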

How the results depend on the processing

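With 2 libraries per group the precision rests on few libraries, and Dppa3 on 3 to 13 reads per library. Without moderation, 0 genes had an adjusted p under 0.05 in any of the 5 comparisons.

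For Dzip3-KD against control by label, where 0 genes were called, 1 gene was called with the replicate block, 24 with only the 4 libraries compared, and 0 to 27 when 1 library was left out (25 without Ring1B-KD 1, 27 without Ring1B-KD 2). For Ring1BKD by file word, 48 genes were called, against 21 with a pseudocount of 0.1, 0 without the filter, 0 without moderation, 0 without the set block, and 3 to 61 when 1 library was left out (3 without Dzip3-KD 1). For Dzip3KD by file word, 1 gene was called with voom weights and 0 to 4 when 1 library was left out. Between the file sets, 879 genes were called, against 0 without the filter, 0 without moderation, 1354 with voom weights and 351 to 509 when 1 library was left out. The 2 members called there became 0 without the filter, 1 (Tfcp2l1) with the common 75th percentile, 0 without moderation and 0 to 2 when 1 library was left out. The number of members called stayed at 0 in the other 4 comparisons under all alternatives run.

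Labels share replicate numbers, but the deviations of same-numbered libraries correlated at -0.04 (control and Ring1B-KD), -0.24 (control and Dzip3-KD) and 0.04, so the numbers do not pair the libraries. With the replicate block 0 genes were called for Ring1B-KD and 1 for Dzip3-KD, and with crossed numbers as a block, chosen after the data were seen, 0 for Dzip3-KD.

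The sign of some small log2 changes turned. With the common 75th percentile these were Klf4 in Ring1B-KD by label (0.01), Klf5 in Ring1BKD by file word (0.01), Prdm14 in Dzip3KD by file word (0.00) and Klf2 between the sets (0.02). With quantile normalization they were Klf4 in Ring1B-KD (0.04), Klf2 in Dzip3-KD by label (0.02), Prdm14 in Dzip3KD (0.00), and Klf2 (0.05) and Zfp42 (-0.07) between the sets. With the file set as a block, added after the data were seen, they were Klf4 (0.19) and Esrrb (0.01) in Ring1B-KD, and Klf4 (0.11), Klf5 (0.74) and Prdm14 (-0.15) in Dzip3-KD. When 1 library was left out, ranges that crossed 0 in Ring1B-KD by label were those of Klf2 (-0.05 to 0.29), Klf4 (-0.20 to 0.19), Klf5 (-0.14 to 0.76), Esrrb (-0.24 to 0.05), Tbx3 (-0.04 to 0.21), Zfp42 (-0.26 to 0.02), Dppa3 (-0.67 to 0.68) and Nr0b1 (-0.31 to 0.04). In Dzip3-KD by label they were Klf2 (-0.26 to 0.08), Zfp42 (-0.24 to 0.04) and Dppa3 (-0.14 to 1.20), by file word Klf5 in Ring1BKD (-0.27 to 0.08) and Prdm14 in Dzip3KD (-0.18 to 0.12), and between the sets Zfp42 (-0.09 to 0.09). The causes were not tested. Of 710 values of single genes under the alternatives, 660 kept their direction and their side of the threshold.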
